A study of Homo sapiens with 3 samples.

Results

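The collagen genes of the melanoma line 1205Lu were followed on 3 arrays, taken from cells grown as a monolayer, as melanoma bodies and again as a monolayer. Every array probe whose printed gene name was a collagen alpha chain (COL, a type number, A and a chain number) was taken as a member, which gave 66 probes in 93 spots for 40 genes, of 41000 probes and 30982 genes on the array. The current gene table returned the same symbol for 58 of the 66 probes by accession, and it did not hold the accessions of the other 8. A further 2 probes, printed under older names, now belong to collagen genes by accession and were not members. With 20 genes on more than 1 probe and 20 on a single probe, each gene was represented by its brightest probe, and other probes are given for the genes past 5-fold and for some others.

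1205Lu is an established human melanoma line, selected as a lung metastasis in mice from the line WM793. The original monolayer (OM) grew for 14 days in standard RPMI-1640 medium with 10% FCS, and the melanoma bodies (MB), adherent three-dimensional clusters, grew for 14 days in hESC (human embryonic stem cell) medium with 20% KnockOut Serum Replacement. The new monolayer (NM) was seeded by MB after their 14 days in hESC medium, kept for another 10 days in the standard medium and freed of residual bodies. Medium, serum and culture form change together between MB and the monolayers and cannot be told apart. Each population was hybridised to 1 array, so no p-value is given for any difference, and the SD between cultures is not known.

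Collagens are extracellular matrix proteins built from 3 alpha chains wound into a helix, in which glycine must recur at the first position of each run of 3 residues. The fibrillar collagens form the cross-striated fibers of skin, bone and cartilage, the network collagens form sheets such as those of basement membranes, and the FACIT collagens sit on fibril surfaces and have interrupted helices. The transmembrane collagens span the plasma membrane and shed their ectodomains, and the remaining types include the beaded filaments of type VI, the anchoring fibrils of type VII and the multiplexins, types XV and XVIII, whose C-terminal fragments include endostatin. Most collagen of the dermis is made by fibroblasts, while melanocytes rest on a basement membrane rich in type IV.

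The helix repeat can be read directly in some of the probes. Probes are 60 bases long, and 4 of the 66 collagen probes (6.06%) hold at least 5 glycine codons (GGN) spaced 3 codons apart in an open frame, against 5 of 40934 other probes (0.0122%). The sequences are shown because this repeat is the feature shared by the family, and the capitals mark the glycine codons in the frame of the repeat. Of the genes shown, COL9A1 differs between the arrays and COL3A1 is at background on all of them.

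COL3A1 (hg17 chr2:189694582-189695626, plus strand): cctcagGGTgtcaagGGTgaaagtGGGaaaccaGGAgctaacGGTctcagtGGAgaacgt
COL4A1 (hg17 chr13:109624341-109624847, minus strand): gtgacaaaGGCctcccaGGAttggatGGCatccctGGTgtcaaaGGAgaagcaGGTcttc
COL4A5 (hg17 chrX:107675633-107675692, plus strand): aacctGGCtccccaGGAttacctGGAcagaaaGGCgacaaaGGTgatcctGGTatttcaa
COL9A1 (hg17 chr6:70983438-70983497, minus strand): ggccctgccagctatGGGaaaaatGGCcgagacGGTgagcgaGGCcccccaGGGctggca

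The COL3A1 and COL4A1 probes span 1045 and 507 bases of genome for 60 bases of probe, so each joins exons across at least 1 intron. The COL4A5 and COL9A1 probes each lie in an uninterrupted genomic stretch. The triplet run of the COL9A1 probe was 5 glycine codons long and those of the other genes were 6.

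Signals are Feature Extraction intensities in arbitrary units (a.u.), unscaled where a level is given. Ratios were taken after scaling to 3 housekeeping genes (GAPDH, HSP90AA1 and ACTB), whose mean stood at 0.978 on MB and 0.877 on NM relative to OM. A probe was counted as expressed where the software marked it well above background, which left 21.2 a.u. as the dimmest collagen signal counted on MB. Where only the dimmer array missed this mark, the ratio is a lower bound and is written as "at least". A ratio past 2-fold is called a 2-fold difference, and a 5-fold difference also needs more than 100 a.u. on the brighter array. For a single spot above 100 a.u. the SD of a log2 ratio of MB to OM, estimated from probes printed in 10 spots, was 0.06, and at 20 to 100 a.u. it was 0.18. That spread is technical only. No signal of a collagen probe was saturated.

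Well above background were 27 of the 40 collagen genes in OM, 31 in MB and 27 in NM, which is 67.5%, 77.5% and 67.5% of them, where all genes stood at 68.8%, 69.7% and 63.5%. With every probe counted, the collagen shares were 57.6%, 65.2% and 54.5%. Of all 41000 probes, 28746 (OM), 29126 (MB) and 26516 (NM) were well above background, a larger share on each array. A set of 26 was above background on all 3 arrays, 6 on only 1 or 2, and 8 on none. The shares on all 3 arrays and on none were 65.0% and 20.0%, where those of all genes were 62.1% and 27.7%. The genes at background throughout were COL1A1, COL1A2, COL3A1, COL11A1, COL4A4, COL4A6, COL21A1 and COL25A1. They include both chains of type I collagen and the chain of type III, the main fibrillar collagens of dermis. COL1A1 was printed in 10 spots, of which 8 (OM), 9 (MB) and 10 (NM) were used after outlier spots were left out. Its signals were 15.1 ± 3.58 (OM), 16.1 ± 6.45 (MB) and 17.2 ± 7.18 a.u. (NM) (SD over spots). The brighter COL1A2 probe, also printed in 10 spots, gave 4.98, 4.94 and 6.68 a.u., and none of the 3 COL3A1 probes exceeded 6.77 a.u. on any array. The level of type I and type III transcripts was therefore not detectable above background in any of the 3 populations.

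By class, all 6 of the genes outside the 4 named classes were above background on all 3 arrays, as were 8 of 10 FACIT genes, 5 of 9 network genes, 5 of 11 fibrillar genes and 2 of 4 transmembrane genes. The genes that were above background on 1 or 2 arrays were dim, apart from COL8A2 on NM. COL2A1 at 21.2 a.u., COL24A1 at 27.9, COL4A3 at 31.8 and COL19A1 at 57.6 were above it on MB alone. COL17A1 was above it on OM alone, at 36.3 a.u., and its other probe was at background everywhere. COL8A2 was above it on MB at 42.5 a.u. and on NM at 142 a.u., but not on OM.

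**Figure D1:**
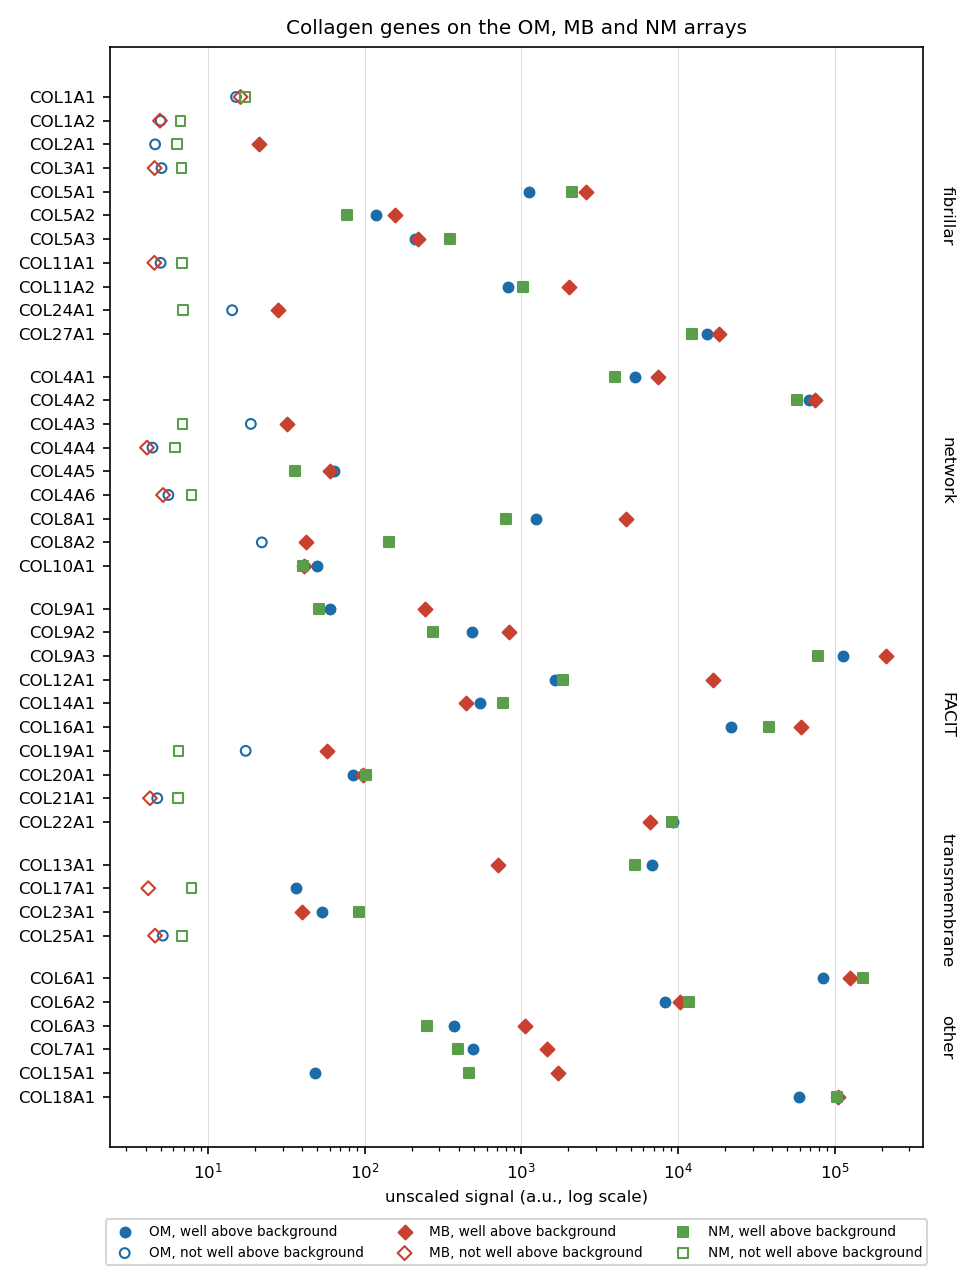
Unscaled signal in a.u. on a log axis for each of the 40 collagen genes, by class, with circles for OM, diamonds for MB and squares for NM. Open symbols are not well above background. The 8 genes with open symbols on all 3 arrays include COL1A1, COL1A2 and COL3A1, and COL15A1, COL12A1 and COL13A1 show the widest spacing of MB from OM among genes above background on both arrays.

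Against OM, 2 of 32 measured collagen genes were past 5-fold higher in MB, COL12A1 and COL15A1, where 0.824% of all measured genes were called. COL13A1 alone was past 5-fold lower, where 0.554% of all genes were. At 2-fold, 10 of the 32 (31.2%) were higher in MB and 1 was lower, with 6.66% and 4.65% of all genes called. Of any size, 25 of 32 were higher and 7 lower in MB, against 56.6% and 43.3% of all genes. COL2A1, COL24A1, COL4A3, COL19A1 and COL8A2 were above background on MB and not on OM. They could therefore not come out lower, and COL17A1, above it on OM alone, could not come out higher. All genes were counted by the same rule. The median log2 ratio of MB to OM was 0.57 over the collagen genes and 0.08 over all genes, bounds included. With total RNA of a whole culture, fewer cells that express a gene and less RNA per cell cannot be told apart. These counts describe 2 arrays and are no test.

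COL15A1, a multiplexin of basement membrane zones, showed the widest difference between MB and OM among the collagen genes. Its brighter probe gave 48.5 a.u. in OM, 1728 in MB and 462 in NM, and its other probe gave 30.4, 703 and 309 a.u. OM was lowest and MB highest with both probes. MB was 36.4-fold over OM (log2 ratio 5.19), NM was 10.9-fold over OM (3.44) and MB was 3.35-fold over NM (1.75). The other probe gave log2 ratios of 4.57, 3.54 and 1.03 in that order. COL15A1 was the single collagen gene past 5-fold higher in both MB and NM than OM, a condition that 0.0327% of all genes met. Both OM signals lie near 20.9 a.u., the lowest signal well above background on OM, and under another background correction, normexp, the brighter probe gave log2 ratios of 3.90 (MB over OM) and 2.31 (NM over OM). The NM to OM fold ranged from 4.97 to 11.9 over all alternatives, and under normexp it was no longer past 5-fold.

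COL12A1, which encodes a FACIT collagen of dense connective tissue that binds the surface of type I fibrils, was higher in MB than in either monolayer. Its brighter probe read 1652 (OM), 16748 (MB) and 1858 a.u. (NM). Its other probe, nearer the 5′ side of the transcript, read 448.5, 1663 and 336 a.u. With both, MB was the highest array and the monolayers were close to each other. The brighter probe put MB 10.4-fold over OM (log2 ratio 3.37) and 8.09-fold over NM (3.02), while the other gave log2 ratios of 1.92 and 2.15. The difference between probes, 1.45 on the log2 scale for MB over OM, was the widest of the 11 genes with more than 1 measured probe, and the other probe does not reach 5-fold. With the probes averaged, MB was 6.27-fold over OM. The spot of the brighter probe had 1 neighbour within 2 positions with signal in MB only, and there was none beside the other probe; its part in the ratio was not tested. COL12A1 was also among the genes that the study listed from these same arrays, so its difference is not independent evidence.

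COL13A1 was the main exception in direction. It encodes a transmembrane collagen found at cell-matrix adhesions. The single-spot probe read 6836 a.u. in OM, 712 in MB and 5353 in NM. The probe printed in 10 spots read 4372 ± 182 (OM), 470 ± 21.6 (MB) and 3632 ± 138 a.u. (NM) (SD over spots). MB was far below both monolayers on each probe, by much more than the SD over spots. OM was 9.38-fold over MB and NM was 8.37-fold over MB, with log2 ratios of MB to OM of -3.23 and -3.19 for the 2 probes. COL13A1 was the single collagen gene past 5-fold lower in MB than both OM and NM, where 0.258% of all genes were. This gene too was listed by the study from these arrays.

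**Figure D2:**
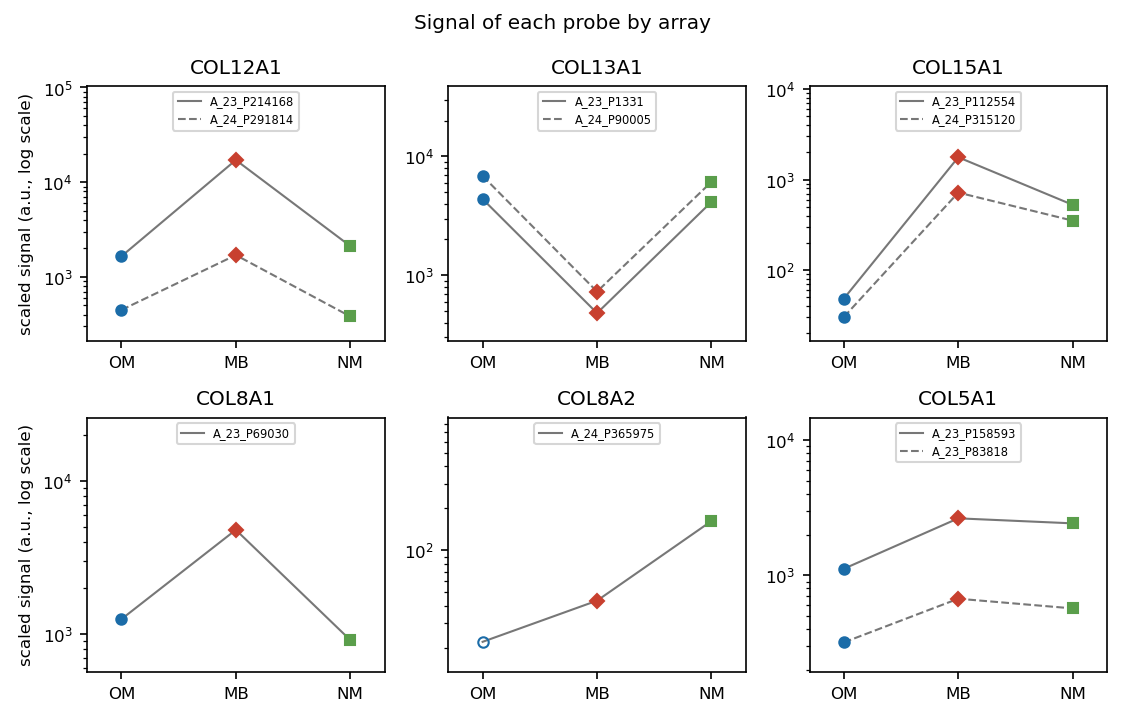
Scaled signal in a.u. on a log axis for each probe of 6 collagen genes on OM, MB and NM, 1 panel a gene, with the probe names in the legends and an open symbol where the signal is not well above background. Both probes of COL12A1 and COL15A1 have their highest value on MB, both probes of COL13A1 their lowest, and COL8A2 has its highest on NM.

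Of the FACIT genes, 4 of 9 measured were past 2-fold higher on MB than OM and none was lower, with a median log2 ratio of 0.95, where 6.66% and 4.65% of all genes were called and the median was 0.08. The 3 chains of type IX collagen, a cartilage FACIT that decorates type II fibrils and also occurs in the eye, were all higher on MB than on either monolayer. COL9A1, whose probe sequence is printed above, gave 60.2 a.u. in OM, 242 in MB and 51.2 in NM, a 4.11-fold difference of MB from OM and 4.24-fold from NM. Under normexp the log2 ratios were 1.36 and 1.19 in place of 2.04 and 2.08. COL9A2 gave 486, 831 and 273 a.u., and COL9A3 gave 113693, 213983 and 77958 a.u. MB was 1.75-fold and 1.93-fold over OM for these chains, short of 2-fold, and 2.73-fold and 2.46-fold over NM. With quantile normalization COL9A3 passed 2-fold over OM, at a log2 ratio of 1.10. The log2 ratio of COL9A1 exceeded that of COL9A2 by 1.23 for MB over OM. This difference depends on the background correction, as COL9A1 is dim. Under normexp COL9A2 gave log2 ratios of 0.72 against OM, nearer to that of COL9A1, and 1.23 against NM, slightly above that of COL9A1.

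Of the other FACIT genes, COL16A1, which encodes a chain of dermal and cartilage matrix, gave 21885 (OM), 60685 (MB) and 38361 a.u. (NM). MB was 2.84-fold over OM and NM was 1.998-fold over OM, just under the 2-fold mark, with NM lying between the others. COL19A1, whose product occurs near basement membranes, was measured on MB alone at 57.6 a.u., at least 2.82-fold over OM, a difference that missed 2-fold under normexp. COL22A1, known from tissue junctions, was lower on MB (6678 a.u.) than on OM (9317) and NM (9227), by less than 2-fold. COL20A1 lay between 83.7 and 102 a.u. on the arrays. COL14A1 was bright on only 1 of its 4 probes, at 547, 443 and 764 a.u. on OM, MB and NM, and the other 3 did not exceed 30.5 a.u. on any array.

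Among fibrillar genes, 2 of 7 measured were past 2-fold higher on MB than OM and none was lower, where 6.66% and 4.65% of all genes were. COL5A1, the main chain of a collagen that starts fibril assembly, gave 1118 a.u. in OM, 2577 in MB and 2123 in NM, and its other probe gave 320, 657 and 500 a.u. Both probes were lowest on OM, and the brighter one was 2.36-fold higher in MB and 2.16-fold higher in NM than in OM. The first missed 2-fold with spike-in scaling, and the second without scaling, with spike-in scaling and with the probes averaged. COL5A1 and COL15A1 were the collagen genes past 2-fold higher in both MB and NM than OM, 2 of 28 measured, against 0.626% of all genes. COL5A2, the chain that pairs with COL5A1, gave 119, 157 and 76.9 a.u., lowest on NM. The log2 ratio of NM to OM therefore differed between the paired chains by 1.55, being 1.11 for COL5A1 and -0.44 for COL5A2. COL5A3 gave 210, 220 and 349 a.u.

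COL11A2, a chain of the cartilage fibril collagen type XI, gave 819 (OM), 2015 (MB) and 1025 a.u. (NM), with MB 2.52-fold over OM. Its partner COL11A1 was at background on all arrays. COL27A1, a fibrillar chain of developing cartilage, was close to level at 15256, 18332 and 12294 a.u. The classical cartilage chain COL2A1 was just above background on MB, at 21.2 a.u., and not on OM or NM.

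The network genes separated into a near-level type IV pair and an unequal type VIII pair. COL4A1 and COL4A2, which form the common basement membrane trimer, gave 5304, 7458 and 3986 a.u. and 68818, 74689 and 57480 a.u. on OM, MB and NM. No ratio of either reached 2-fold, and the log2 ratios of MB to OM were 0.52 and 0.15. The direction of COL4A2 between MB and OM turns with 75th percentile and with spike-in scaling. The COL4A1 probe printed above gave a log2 ratio of 0.64, close to that of the brighter COL4A1 probe.

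The COL4A1 and COL4A2 genes lie head to head, with 126 bases between the listed starts. The sequence between them is shown because the pair is transcribed in both directions from it, and it is taken from RefSeq promoters in GRCh38.p14. The capitals mark a CCAAT box and a GC box (GGGCGG), both found here as the reverse complement.

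COL4A1 to COL4A2 (GRCh38.p14 chr13:110307158-110307283, minus strand): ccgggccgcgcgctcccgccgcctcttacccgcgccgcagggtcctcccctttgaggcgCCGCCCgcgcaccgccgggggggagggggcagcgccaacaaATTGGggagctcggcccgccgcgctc

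Searched on both strands, GGGCGG occurred in 34.6% and CCAAT in 21.1% of all RefSeq promoters in a window of that length, so neither letter run is particular to the pair. The other type IV pairs are also head to head, COL4A3 with COL4A4 at 418 bases and COL4A5 with COL4A6 at 379 or 1415 by the COL4A6 start taken. COL4A4 and COL4A6 were at background on every array. COL4A3 was above it on MB at 31.8 a.u., and COL4A5 gave 63.6 a.u. in OM, 59.9 in MB and 35.9 in NM from the probe shown above, while its other probes stayed at background.

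COL8A1, a chain of the short-chain network collagen of vessel walls and corneal endothelium, gave 1249 (OM), 4687 (MB) and 801 a.u. (NM). MB was highest, 3.84-fold over OM and 5.25-fold over NM. Under 75th percentile, quantile, spike-in or geometric mean scaling and under normexp the fold over NM was below 5. The COL8A1 spot had 1 neighbour within 2 positions that was bright on MB alone, and its part was not tested. COL8A2, the other chain, gave 22.1 a.u. on OM (not well above background), 42.5 on MB and 142 on NM. NM was highest, at least 7.34-fold over OM and 3.72-fold over MB. Under normexp the log2 ratio of NM to OM was 1.40 in place of 2.88, short of 5-fold, and that of MB to NM was -1.08. The chains thus ran in opposite directions between MB and NM, with log2 ratios of 2.39 and -1.90. COL10A1, a network chain of hypertrophic cartilage, stayed between 40.4 and 49.7 a.u.

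Among the other transmembrane genes, COL23A1 gave 53.1 a.u. in OM, 39.6 in MB and 92.4 in NM, with NM 2.60-fold over MB and 1.98-fold over OM. The first of these missed 2-fold under normexp, with a log2 ratio of MB to NM of -0.75. COL17A1, the collagen of epidermal hemidesmosomes, was above background on OM alone. COL17A1 could therefore not come out higher on MB than OM. COL13A1 and COL23A1, above background on both arrays, were lower on MB than OM. COL13A1 alone was past 2-fold, and COL23A1 had a log2 ratio of MB to OM of -0.39. At 20 to 100 a.u. the technical SD alone of such a ratio is 0.18 on the log2 scale.

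The beaded filament genes of type VI collagen, whose product links cells to the matrix, did not share the same order of the arrays. COL6A1 gave 83843 (OM), 125745 (MB) and 151187 a.u. (NM), COL6A2 gave 8286, 10346 and 11713 a.u. (its other probe 2797, 2638 and 4458), and COL6A3 gave 372, 1052 and 249 a.u. The log2 ratios of MB to OM from the COL6A2 probes differed in sign, at 0.35 and -0.05. COL6A1 and COL6A2 were highest on NM and COL6A3 was highest on MB. COL6A1 was 2.06-fold higher on NM than OM, which missed 2-fold with 75th percentile, quantile, spike-in and no scaling and with the probes averaged, while COL6A3 was 2.89-fold higher on MB than OM and 3.79-fold higher on MB than NM. The log2 ratio of MB to NM was -0.42 for COL6A1 and 1.92 for COL6A3, a difference of 2.35. The measured COL6A3 probe covers 38 bases of genome, and the second COL6A3 probe, at another part of the gene, was at background on all arrays.

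COL7A1, the anchoring fibril chain that ties the basement membrane to the dermis, gave 491 a.u. in OM, 1454 in MB and 395 in NM. MB was 3.03-fold over OM and 3.30-fold over NM. COL18A1, the second multiplexin, gave 59412 (OM), 105575 (MB) and 103838 a.u. (NM), with MB and NM level and NM 1.99-fold over OM. Its second probe gave 2689, 3912 and 4185 a.u. The direction of COL18A1 between MB and NM turns with quantile normalization and without scaling, as that of COL6A1 does with quantile normalization.

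Compared with NM, 2 of 31 measured collagen genes were past 5-fold higher in MB (COL12A1 and COL8A1) and COL13A1 was past 5-fold lower, where 1.83% and 1.35% of all genes were called. At 2-fold, 8 were higher and 3 lower (COL13A1, COL23A1 and COL8A2), against 12.4% and 9.86%. Of any size, 17 of 31 were higher and 11 lower in MB, where 50.2% and 45.8% of all genes were. Among the higher ones COL19A1, above background on MB alone, could not come out lower. The 6 genes past 2-fold higher in MB than in both monolayers were COL12A1, COL15A1, COL6A3, COL7A1, COL8A1 and COL9A1, 6 of 31 (19.4%) where 4.81% of all genes met the condition, and COL13A1 was the single one lower than both, where 2.81% were. At 5-fold COL12A1 alone was higher than both (0.46% of all genes). The median log2 ratio of MB to NM was 0.22 over collagen genes and 0.00 over all genes. Between the monolayers, 2 of 28 were past 5-fold higher on NM than OM (COL15A1 and COL8A2), where 0.621% of all genes were, and none was lower, where 0.449% were. At 2-fold, COL15A1, COL5A1, COL6A1 and COL8A2 were higher on NM (4.58% of all genes) and none was lower (5.9%). Of any size, 14 were higher and 14 lower, beside 53.2% and 43.4% of all genes. COL8A2, at background on OM, could not come out lower, and COL17A1, at background on NM, could not come out higher. No collagen gene was lower in both MB and NM than OM at 2-fold (0.967% of all genes) or 5-fold (0.103%). The median log2 ratio of NM to OM was 0.07, beside 0.04 over all genes. These comparisons share arrays, so the counts are not separate evidence.

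**Figure D3:**
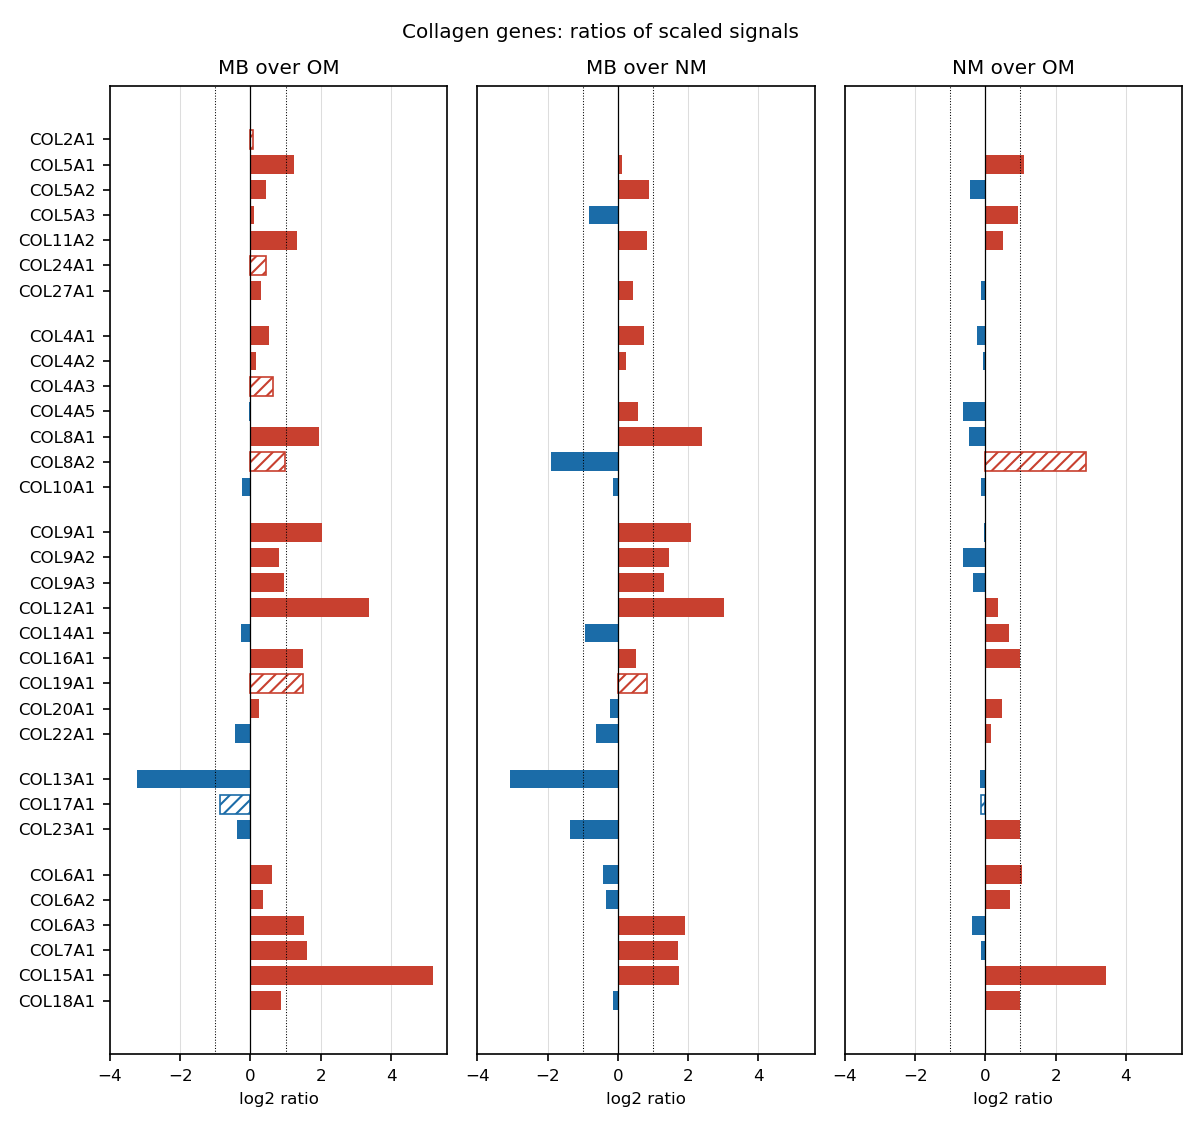
Log2 ratios of scaled signals for the collagen genes measured in at least 1 comparison, ordered by class as in the plot of signals, with panels for MB over OM, MB over NM and NM over OM. Red bars are higher and blue bars lower in the first-named population, hatched bars are bounds and dotted lines mark 2-fold. COL15A1 reaches 5.19 and COL13A1 -3.23 in the first panel, and COL8A2 is lower in the second panel and higher in the third, its NM signal being the highest.

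Members measured by more than 1 probe gave similar ratios for most genes. Of 11 such genes for MB over OM, 9 had probes within 0.5 on the log2 scale of each other and 9 had probes of the same sign, and the median range was 0.29. Those beyond 0.5 were COL12A1 (1.45) and COL15A1 (0.62), the genes past 5-fold higher in MB than OM. Genes with only 1 measured probe and others at background, such as COL6A3, COL4A5 and COL20A1, are not in this tally. For MB over NM 6 of 9 were within 0.5, and for NM over OM 8 of 9 were.

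A list of 56 genes that modify, export, process or bind collagen was all present on the array, and 9 of the 52 measured were past 2-fold higher and 2 lower in MB than OM (6.66% and 4.65% of all genes). Against NM, 10 of 50 were higher and 4 lower in MB (12.4% and 9.86% of all genes), and between the monolayers 5 of 49 were higher and 3 lower in NM (4.58% and 5.9%). Of the 14 enzymes and cofactors that act in the endoplasmic reticulum, P3H2, a prolyl 3-hydroxylase acting on basement membrane collagen, gave 14187 a.u. in OM, 157019 in MB and 52305 in NM, with MB over OM at a log2 ratio of 3.50 and NM over OM at 2.07. PLOD2, the lysyl hydroxylase of collagen telopeptides, gave 1195, 2859 and 1032 a.u., highest on MB. P4HA3, a prolyl 4-hydroxylase subunit, was measured on OM alone, at 69.6 a.u. The other P4HA, PLOD, P3H and COLGALT genes did not reach 2-fold in any comparison. FKBP14, a folding enzyme, gave 3940, 6918 and 1754 a.u., with a log2 ratio of MB to NM of 1.82, and SERPINH1, the collagen chaperone, did not reach 2-fold.

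Crosslinking enzymes differed among themselves. LOXL4, a lysyl oxidase, gave 26193 (OM), 74255 (MB) and 8351 a.u. (NM), with log2 ratios of 1.54 against OM and 3.00 against NM. LOX, the founding member, gave 1235, 558 and 2017 a.u., lowest on MB, with log2 ratios of -1.11 and -2.01. LOXL3 was higher and LOXL1 lower on MB than NM, with log2 ratios of 1.09 and -1.18. The procollagen N-proteinase ADAMTS2 was higher on NM, at 117 a.u., than on MB or OM (51.7 and 48.8 a.u.), and its relative ADAMTS3 was lower on NM than OM, with a log2 ratio of -1.05.

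Of the collagen receptors, DDR1, a receptor tyrosine kinase, gave 21091 a.u. in OM, 50108 in MB and 15287 in NM, with MB at log2 ratios of 1.28 against OM and 1.56 against NM. ITGA10, an integrin alpha chain, was measured on MB alone at 141 a.u., with log2 ratios of at least 2.78 over OM and 2.12 over NM. Of the fibril-binding proteins, PRELP gave 80.8, 1403 and 197 a.u., DPT 143, 867 and 165 a.u. and BGN, biglycan, 75.1, 366 and 244 a.u., all lowest on OM and highest on MB. FMOD, fibromodulin, was measured on MB alone at 125 a.u. COMP, a cartilage matrix protein, was 68.2 a.u. on NM and at background on MB. DPT, FMOD, PRELP and ITGA10 had been listed by the study from these arrays, so the count of the list is not independent evidence.

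**Figure D4:**
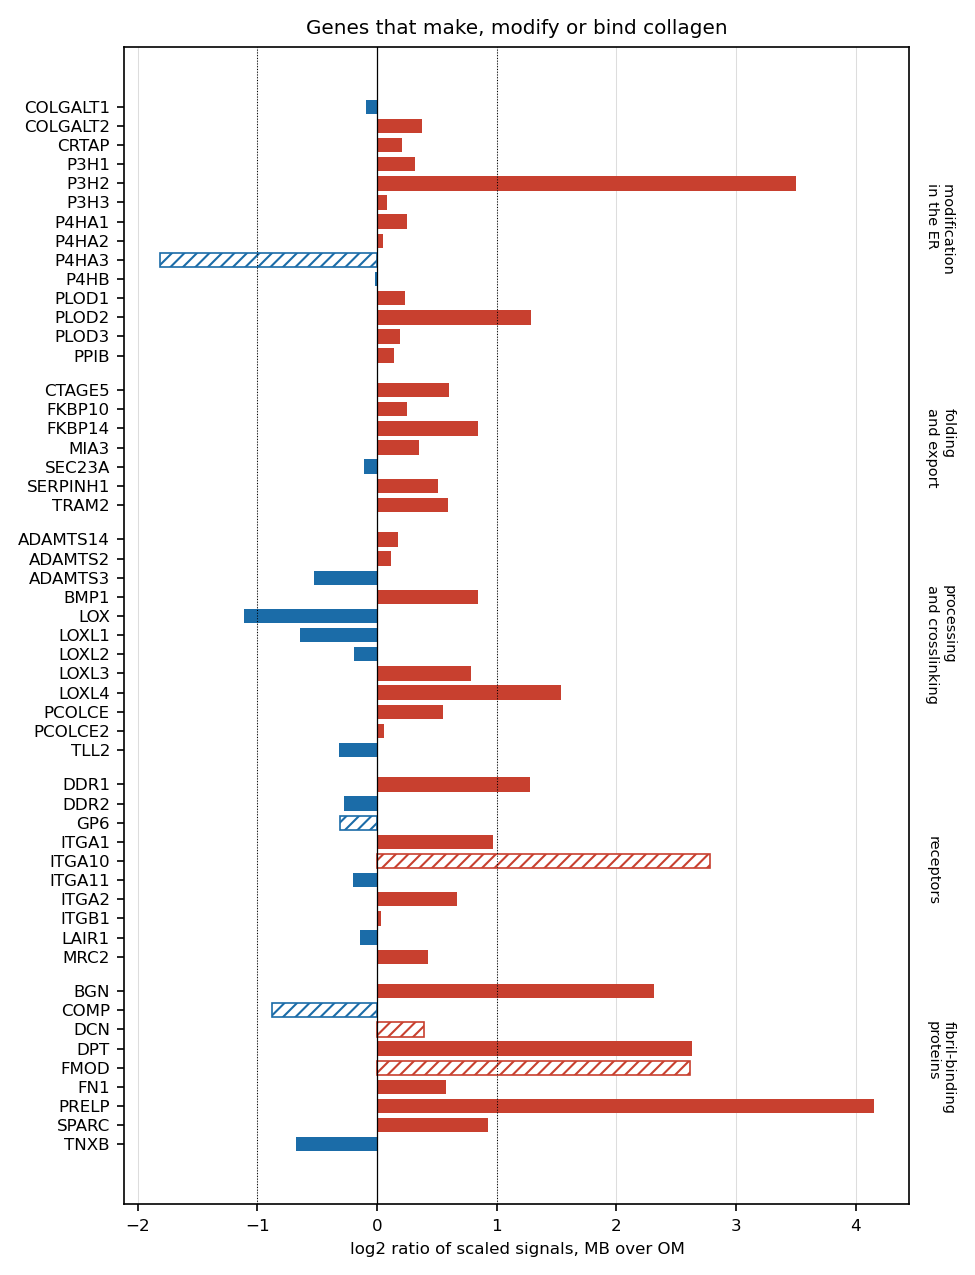
Log2 ratio of scaled signals, MB over OM, for the 52 measured genes that make, modify or bind collagen, by list, with hatched bars for bounds and dotted lines at 2-fold. PRELP and P3H2 reach 4.15 and 3.50, and LOX and P4HA3 are the bars past 2-fold on the lower side.

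Markers were checked on the same arrays. Of 8 genes of the melanocyte lineage, OM and MB each had 6 above background and NM had 5, with TYR and TYRP1 at background on all 3 and MLANA on NM. Their summed signal was 32230, 54189 and 19122 a.u., most of it from S100B at 25155, 43760 and 13307 a.u. PMEL (286, 209 and 271 a.u.) was lowest on MB, and DCT (66.7, 62.8 and 64.1 a.u.) was close to level. Of 8 fibroblast markers, 4 passed it in OM, 5 in MB and 4 in NM. LUM, POSTN and PDPN were at background on all 3, and DCN, decorin, was above it on MB alone at 26.8 a.u. The fibroblast list summed to 9550 (OM), 17729 (MB) and 9242 a.u. (NM), led by PDGFRA, with FAP at 1798, 4684 and 2334 a.u. The markers did not share 1 order, as PDGFRB was highest on NM (1246, 2322 and 2737 a.u.) and THY1 lowest on MB (960, 788 and 940 a.u.). The defining fibroblast collagens COL1A1, COL1A2 and COL3A1 were at background on all arrays, beside the higher sum on MB. The part of other cells in the collagen ratios was not tested. Of the endothelial markers CDH5 was at background on all 3 arrays, VWF was above it on all, PECAM1 on MB alone and KDR on OM alone, at 26.7 a.u. Of the 3 leukocyte markers PTPRC was at background on all arrays, while CD3E gave 110, 84.8 and 87.4 a.u. and CD68 4716, 1727 and 4944 a.u., the latter past 2-fold lower on MB than on either monolayer.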

How the data were processed

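Total RNA of OM, MB and NM was hybridised to 1 array each (Agilent 1-colour, Cy3), all on 1 slide and in 1 scan. The authors deposited the intensity of each spot from Feature Extraction 9.5.3.1, with background subtracted, on a linear scale and not scaled between arrays, along with whether the software called each spot well above background. The value table they deposited holds the same intensities (130128 of 130128 within 0.1%). Deposited probe positions are in hg17.

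Control and outlier spots were left out, spots of a probe were averaged, and each array was scaled to the mean of 3 genes, GAPDH, HSP90AA1 and ACTB (the methods name HSP90 without the gene). A gene was its brightest probe. A signal not well above background was set to the higher of itself and the dimmest signal well above background (20.9 a.u. on OM, 19.4 on MB, 29.1 on NM). The 5-fold and 100 a.u. thresholds are the study's. With 1 array a group no test was run, and precision is limited by that number. Named were all collagen genes past 2-fold, every probe of those past 5-fold, the rest by class, and collagen-related genes past 2-fold, at most 3 each way per list and comparison. Members and lists were chosen with earlier results of these data known.

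Alternatives were 75th percentile, quantile, no, spike-in (8 probes) and geometric mean scaling, normexp (limma 3.58.1, R 4.3.3, offset 50), outlier spots kept, other probe and dim-signal rules, and the value table. Python 3.11.15, numpy 2.4.6, pandas 2.3.3 and matplotlib 3.10.9 were used. On simulated arrays of 41000 probes for MB over OM, all 50 probes changed 8-fold up and all 50 changed 3-fold up were called. All changed probes lay above 100 a.u. on OM before the change, and only technical noise was added. The simulation held no bounds and no spread between cultures, so it checks the calling rule and not the collagen ratios near background. Collagen genes printed under older names and protein sequences were not analysed here.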

Additional observations from a re-analysis of the deposited data

How the results depend on the processing

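No paired analysis was possible because each population has 1 array. No alternative run on single genes turned the direction of a called value. The dim-signal rules were run on counts and on medians over all collagen genes only. Of the counts and medians, 222 of 264 stayed near their reported value (a count within 1.5 times, a median within the technical SD of a single-spot ratio). So did 196 of 423 ratios of single collagen genes. Both tallies include the value table, which holds the same intensities and could not differ. Another scaling shifted the median of all genes by up to -0.29 (spike-in, MB over OM) and 0.16 (no scaling, MB over NM). Values below are medians of log2 ratios over measured collagen genes, or counts, and the cause of a change was not tested beyond the construction of the setting. With 75th percentile scaling the medians were 0.38 for MB over OM, 0.11 for MB over NM and -0.0098 for NM over OM, 2 genes were 2-fold lower in MB than OM and 1 was 5-fold higher in MB than NM. With quantile normalization the MB over NM median was 0.33, with 1 gene 5-fold higher and 5 genes 2-fold lower in MB. Without scaling the medians were 0.38 (MB over NM) and -0.12 (NM over OM), and 2 genes were 2-fold higher in NM than OM. With spike-in scaling the medians were 0.28, 0.087 and -0.10 for MB over OM, MB over NM and NM over OM, 2 genes were 2-fold lower in MB than OM, 1 was 5-fold higher in MB than NM and 2 were 2-fold higher in NM than OM. With the geometric mean of the housekeeping genes the medians were 0.13 for MB over NM and 0.13 for NM over OM, 1 gene was 5-fold higher in MB than NM and 7 were 2-fold higher in NM than OM. With normexp the medians were 0.33, 0.12 and 0.17, 1 gene was 5-fold higher in MB than NM and 0 in NM than OM, and of the collagen-related genes 1 was 2-fold lower in MB than OM, 2 in MB than NM, 3 were higher in NM than OM and 1 lower. Averaging the probes of a gene left 2 genes 2-fold higher in NM than OM. With both arrays required to be well above background the MB over NM median was 0.42, 1 gene was 5-fold higher in NM than OM and 1 collagen-related gene was 2-fold lower in MB than OM. With ratios as they stand the medians were 0.80 (MB over OM) and 0.58 (MB over NM), 2 genes were 2-fold lower in MB than OM and 1 was 2-fold lower in NM than OM. With the brighter array above 100 a.u. the medians were 0.83, 0.46 and 0.36, and 1 collagen-related gene was 2-fold lower in MB than OM. The sign of the NM over OM median therefore depends on the scaling. Class medians kept their sign or reached 0 under every alternative run on them; for MB over OM the FACIT median ranged from 0.65 to 1.10 and the fibrillar one from 0.14 to 0.44. The direction of COL20A1, COL4A2 and COL5A3 (MB over OM), COL10A1, COL18A1, COL5A1 and COL6A1 (MB over NM) and COL10A1, COL22A1 and COL9A1 (NM over OM) turned under another scaling, all short of 2-fold. Signals at 20 to 100 a.u., among them those of COL8A2 on OM and MB, COL19A1 on MB and COL23A1, limit what a ratio can show.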
